A study of Mus musculus with 8 samples.

Results

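Transcripts of 7 genes that are used as markers of the oligodendrocyte lineage were followed in cultured hippocampal neurons: *Pdgfra*, *Cspg4*, *Olig1*, *Olig2*, *Gpr17*, *Mbp* and *Cnp*. They were taken by name from the 45706 genes of the count table. The neurons came from C57BL/6 *Wt* mice at embryonic day 18 and were collected at 12 to 14 days in vitro, after 10 µM 5-fluoro-2′-deoxyuridine had been given to every well to limit the growth of glia. They received 1 µM MCH (melanin-concentrating hormone) peptide or vehicle (H2O) for 4 h. Each treatment has 4 wells, numbered as replicates 1 to 4, and 2 independent cultures supplied them, each with 2 vehicle-treated and 2 MCH-treated wells. Which culture a replicate came from is not given in the sources used here, so *P* values measure the spread between these wells. The libraries were made from poly-A RNA with strand kept, and salmon's estimated reads per gene are the measurement.

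Oligodendrocytes arise from dividing precursors, which sense platelet-derived growth factor A through the receptor Pdgfra and carry the proteoglycan NG2, the product of *Cspg4*. The basic helix-loop-helix factors Olig1 and Olig2 are switched on in neural progenitors and kept through the lineage, in which the factor Sox10 then acts. Newly committed cells pass through a stage marked by the receptor Gpr17, before they make myelin with proteins such as Mbp (myelin basic protein) and the enzyme Cnp. Several of the 7 genes are not private to the lineage. *Pdgfra* is also known from fibroblasts, *Cspg4* from pericytes and *Olig2* from progenitors of astrocytes and some neurons, and an upstream start of the *Mbp* gene gives golli-Mbp transcripts that are also made in neurons and immune cells.

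Library totals ranged from 26083936 to 31844861 estimated counts, and 14962 genes passed the filter on low counts. For principal components, each gene was first centred on its mean within each treatment, so the treatment itself could not appear in them. Computed without the listed genes, the first component held 58.8% of the variance that remained. It placed all 8 wells by replicate number. Replicates 1 and 2 of both treatments lay on one side and replicates 3 and 4 on the other. Replicates 3 and 4 are therefore compared with replicates 1 and 2 below, and because this split was read from the same counts, its differences are a description. Neuron markers were abundant in all wells, with a summed level over 10 genes of 7675 to 8487 TPM (a level corrected for transcript length and depth).

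Some defining genes of the oligodendrocyte lineage were absent from these wells, and other genes of the lineage were present. *Sox10*, the factor that defines the lineage, had 0 reads in all 8 wells, and so had *Mog*, a protein of the outer myelin surface, and *Enpp6*, an enzyme of newly forming oligodendrocytes. Beside *Gpr17*, 9 of the 48 other lineage genes found in the table lay at or under 3 counts in every well, the floor under which a gene was not told apart from absent. They were *Sox10* and *Neu4* among 16 precursor genes, *Enpp6*, *Zfp488* and *Nkx6-2* among 12 genes of committed precursors, and *Mog*, *Mag*, *Cldn11* and *Opalin* among 20 myelin genes. The filter on low counts was passed by 13 of these 16 precursor genes, 5 of the 12 and 11 of the 20. Of all 45706 genes in the table, 14962 passed it. The oligodendrocyte factor gene *Myrf* had 5 to 8 counts per well and *Mobp* 0 to 4. For genes at 0, the floor allows up to 3 counts per well, a limit that covers counting error only. Which cells the reads of the 7 genes came from was not tested, and the genes are described here by their names.

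Measured per length, *Olig1* was the most abundant of the 7. Its median over the 8 wells was 47.5 TPM, with a range of 20.4 to 90.9. *Cnp* followed with a median of 16.5 TPM (8.91 to 18.3) and *Mbp* with 15.5 TPM (12.9 to 16.5), and the ranges of these neighbours overlapped. Then came *Olig2* at a median of 0.983 TPM (0.381 to 2.91), *Pdgfra* at 0.492 TPM (0.405 to 0.657) and *Cspg4* at 0.192 TPM (0.0822 to 0.487). *Olig2* overlapped *Pdgfra*, and *Pdgfra* overlapped *Cspg4*. The order turned with the side for these close pairs. In replicates 1 and 2 the medians were 14.99 TPM for *Mbp* and 9.45 TPM for *Cnp*, and 0.482 TPM for *Pdgfra* and 0.416 TPM for *Olig2*. In replicates 3 and 4 they were 17.8 TPM for *Cnp* and 15.5 TPM for *Mbp*, and 2.29 TPM for *Olig2* and 0.524 TPM for *Pdgfra*. *Olig1* lay above *Cnp* and *Mbp* in each of the 8 wells, and *Gpr17* stood last with at most 0.0332 TPM. The *Cnp* level in vehicle replicate 1, 15.6 TPM, rested on a short annotated transcript of 322 bases that took 7.86 estimated reads. Without transcripts under 500 bases, that well had 8.55 TPM and the order of *Mbp* and *Cnp* turned, with medians of 15.1 and 12.7 TPM.

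**Figure D1:**
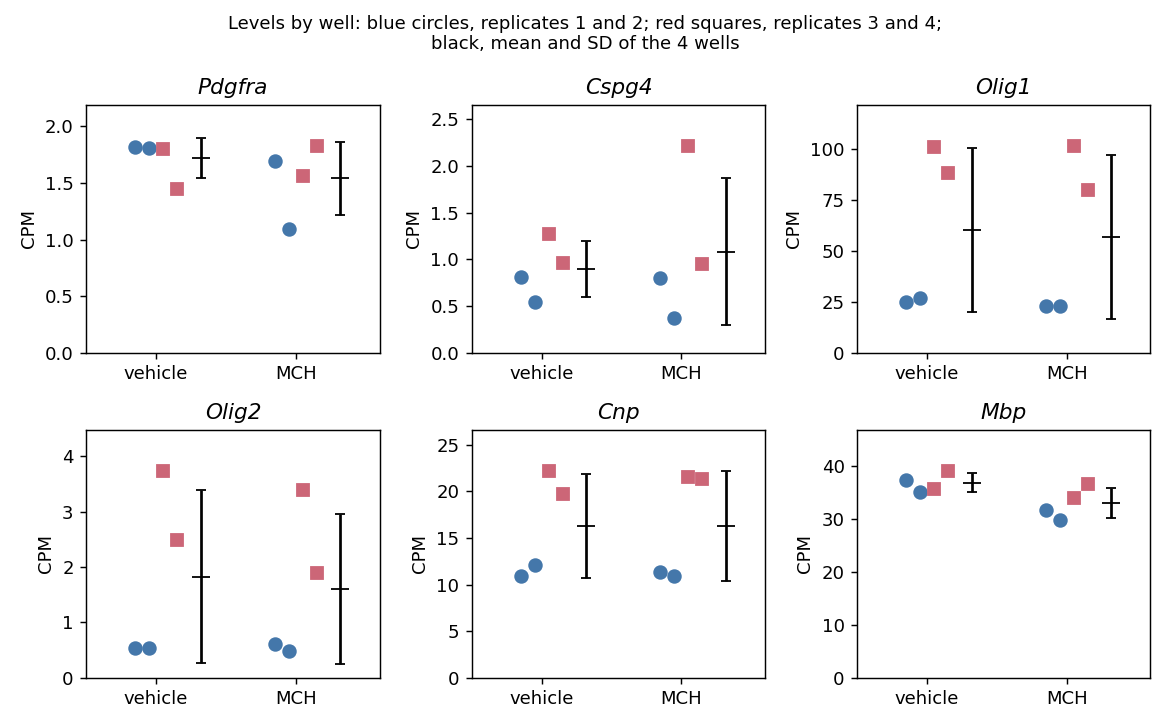
CPM (counts scaled to a common library size, vertical axes from 0) of the 6 genes that passed the filter, by treatment (horizontal axes), with 1 point per well and the mean and SD of 4 wells in black. For *Olig1*, replicates 3 and 4 sit at 79.8 to 101 CPM and replicates 1 and 2 at 22.9 to 26.6 CPM in both treatments, whereas *Mbp* and *Pdgfra* show no such gap.

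*Olig1* and *Olig2* lie on chromosome 16, the former at 91269772 to 91271933 and the latter at 91225457 to 91228677 (GRCm38, both on the plus strand), with 41095 bases between them. Each has 1 annotated transcript. In vehicle-treated wells *Olig1* had 24.7, 26.6, 101 and 88.2 CPM in replicates 1 to 4, and in MCH-treated wells 22.9, 22.9, 101 and 79.8 CPM. The lower values belonged to replicates 1 and 2 in both treatments, and the treatments overlapped fully. *Olig2* was much scarcer, at 0.542, 0.544, 3.74 and 2.49 CPM with vehicle and 0.607, 0.488, 3.39 and 1.90 CPM with MCH. These values rest on 13 to 106 counts per well and follow the same division by replicate. Per length, the *Olig1* level was 30.9 to 56.0 times that of *Olig2* over the 8 wells. The ratio was 43.1 to 56.0 in replicates 1 and 2 and 30.9 to 48.1 in replicates 3 and 4, which overlap.

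The precursor receptor gene *Pdgfra* (chromosome 5, 75152292 to 75198215, plus strand) had 29 to 53 counts per well. Vehicle replicates 1 to 4 gave 1.82, 1.81, 1.80 and 1.45 CPM, and MCH replicates 1.69, 1.09, 1.56 and 1.83 CPM. Neither treatment nor replicate number separated these wells. *Cspg4* (chromosome 9, 56865033 to 56899870, plus strand) had 10 to 64 counts per well, with 0.813, 0.544, 1.27 and 0.966 CPM with vehicle and 0.799, 0.375, 2.21 and 0.948 CPM with MCH. Its highest value came from MCH replicate 3 and its lowest from MCH replicate 2. *Gpr17* (chromosome 18, 31942997 to 31949636, minus strand), the receptor of the committed stage, did not pass the filter. It had 0, 0, 1 and 0 counts with vehicle and 3, 1, 0 and 0 with MCH, and no fold change is given because all wells lie at or under the floor. *Gpr17* lies within *Lims2* on the opposite strand, which had 11 to 19 counts per well.

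Of the myelin genes, *Cnp* (chromosome 11, 100574904 to 100591729, plus strand) encodes a phosphodiesterase of the myelin membrane. It had 10.9, 12.1, 22.2 and 19.8 CPM in vehicle replicates 1 to 4 and 11.4, 10.96, 21.6 and 21.3 CPM in MCH replicates. As for *Olig1*, replicates 3 and 4 were the high ones in both treatments. Its transcript Cnp-201 held 95.8 to 100% of its reads in each well. The 3′ part of the *Cnp* locus overlaps *Dnajc7* on the opposite strand, which had 4137 to 4898 counts per well, and how strand was used in counting is not given in the sources used here. *Mbp* (chromosome 18, 82475146 to 82585637, plus strand) was even, with 37.5, 35.2, 35.7 and 39.2 CPM with vehicle and 31.8, 29.9, 33.98 and 36.7 CPM with MCH. MCH replicates 1, 2 and 3 lay below all vehicle wells, and MCH replicate 4 lay within their range.

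The *Mbp* reads came almost wholly from the upstream, golli start of the gene. Of 16 annotated transcripts, 4 begin at the upstream start near position 82475146 and 12 begin 79.3 kb or more downstream, where the transcripts of the myelin protein start. In the well with the lowest share, vehicle replicate 3, salmon assigned 98.3% of the *Mbp* reads to upstream transcripts (Wilson 95% interval 97.3 to 99.0%, counting error only). In the well with the highest share, MCH replicate 1, it was 100% (interval 99.6 to 100%). The upstream transcripts held 784 to 1050 estimated reads per well and the downstream ones 0 to 17.0. Mbp-205, a protein-coding golli transcript of 4797 bases, alone held 86.3 to 90.6% of the reads. The assignment of reads to transcripts that share exons is salmon's estimate. The level of *Mbp* in these wells is thus almost wholly a level of golli transcripts, and the downstream start reached at most 0.956 TPM.

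**Figure D2:**
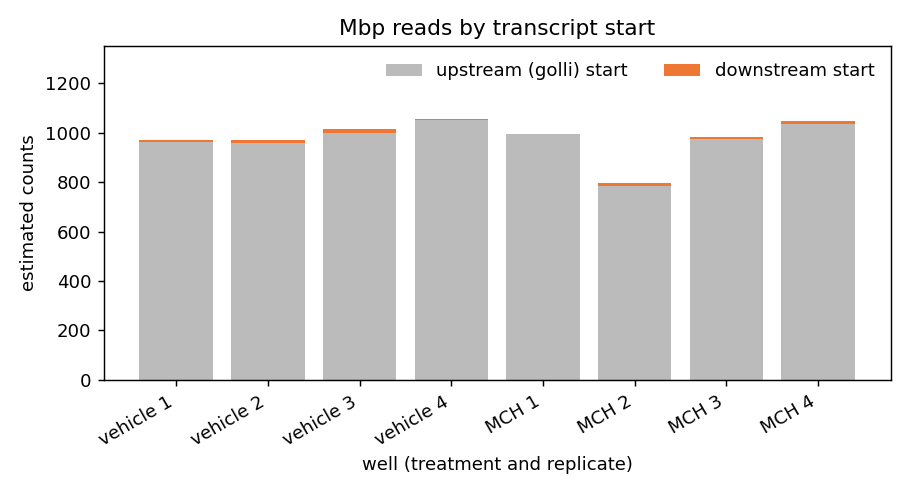
Estimated counts of *Mbp* (vertical axis) in each of the 8 wells (horizontal axis), stacked by transcript start. Grey, transcripts from the upstream (golli) start, with 784 to 1050 counts per well; orange, transcripts from the downstream start, with 0 to 17.0 counts, a sliver at the top of each bar.

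Reads of *Pdgfra* were spread over 4 of 9 annotated transcripts, and salmon placed them on Pdgfra-201 in 5 wells and on Pdgfra-202 in 4, so the split between these 2 was not stable and only the gene total is used.

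To determine whether MCH changed any of these genes, the 4 MCH-treated wells were compared with the 4 vehicle-treated wells. None of the 6 genes tested was differentially expressed, against 35 of 14962 genes in all (0.234%). With the replicate number as a block, 596 genes (3.98%) and none of the 6 were called. DESeq2 called none of the 5 for which it gave an adjusted *P* value (none was given for *Cspg4*), where it called 1.19% of genes. Without adjustment, 1 of the 6 lay under 0.05 in the edgeR fit, where 8.5% of all genes did, and the treatments overlapped for all 6, where the wells of 6.03% of all genes did not overlap. *Mbp* had the lowest *P* value of the 6. Its mean level was 36.9 ± 1.81 CPM with vehicle and 33.1 ± 2.91 CPM with MCH (SD, n = 4 each), a log2 fold change of −0.16 (SE 0.07, adjusted *P* = 0.567). A two-sided exact permutation test over the 70 assignments of treatments to wells gave *P* = 0.0857, where 0.0286 is the smallest value possible. Within replicates 1 and 2 the log2 fold change of *Mbp* was −0.23 (adjusted *P* = 0.07) and within replicates 3 and 4 it was −0.08 (adjusted *P* = 0.759).

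For *Olig1*, the means were 60.1 ± 40.1 CPM with vehicle and 56.7 ± 40.1 CPM with MCH, a log2 fold change of −0.08 with an SE of 0.70. Each treatment holds wells from both sides of the split by replicate. Within replicates 1 and 2 the log2 fold change was −0.17 (SE 0.15) and within replicates 3 and 4 it was −0.06 (SE 0.12). The log2 fold change of *Olig2* was −0.20 (SE 0.81), that of *Cspg4* 0.27 (SE 0.49), that of *Pdgfra* −0.16 (SE 0.21) and that of *Cnp* 0.00253 (SE 0.33). *P* values of the exact permutation test over the 6 genes ranged from 0.0857 to 0.971. Within replicates 1 and 2, where 3.87% of all genes were called, and within replicates 3 and 4, where 0.782% were, none of the 6 was called. The effect of MCH was also compared between replicates 1 and 2 and replicates 3 and 4 with an interaction term. For the 6 genes, the difference in log2 fold change lay between −0.26 (*Olig2*) and 0.67 (*Cspg4*), with no adjusted *P* value under 0.779, and 4 genes of the whole table (0.0267%) were called. Once replicate numbers were blocked, the log2 fold change of *Olig1* was −0.10 (SE 0.0438, adjusted *P* = 0.21), that of *Olig2* −0.18 (SE 0.205) and that of *Cspg4* 0.17 (SE 0.27), so the errors were smaller than without the block, most of all for *Olig1*.

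The replicates told more apart than the treatment did. Of the 6 genes, 4 were called between replicates 3 and 4 and replicates 1 and 2, all higher in replicates 3 and 4, where 34.7% of all genes tested were called and 18.6% were called higher. The wells of the sides did not overlap for the same 4 genes, against 29.6% of all genes. *Olig2* rose most, from 0.545 ± 0.0486 to 2.88 ± 0.84 CPM (SD, n = 4), a log2 difference of 2.38 (SE 0.24, adjusted *P* = 1.93e-07). *Olig1* rose from 24.3 ± 1.79 to 92.5 ± 10.5 CPM, a log2 difference of 1.93 (SE 0.09, adjusted *P* = 1.09e-06). *Cnp* rose from 11.3 ± 0.566 to 21.2 ± 1.04 CPM, a log2 difference of 0.90 (SE 0.06, adjusted *P* = 1.05e-09). These 3 genes were called within the vehicle-treated wells alone as well, with log2 differences of 2.51, 1.88 and 0.86, where 21.9% of all genes were called.

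*Cspg4* was higher in replicates 3 and 4 by 1.08 on the log2 scale (SE 0.32, adjusted *P* = 0.0135), from 0.633 ± 0.212 to 1.35 ± 0.595 CPM. That call was lost without MCH replicate 3, its highest well (0.69, adjusted *P* = 0.109), and without MCH replicate 2, its lowest (0.83, adjusted *P* = 0.055). It was also lost within the vehicle-treated wells (0.73, adjusted *P* = 0.286). *Mbp* differed by 0.12 (SE 0.05, adjusted *P* = 0.0829), and the call was gained without vehicle replicate 1 (0.15, adjusted *P* = 0.048), without vehicle replicate 3 (0.15, adjusted *P* = 0.03) and within the MCH-treated wells (0.19, adjusted *P* = 0.0478), where 25.3% of all genes were called. *Pdgfra* differed by 0.05 (SE 0.20, adjusted *P* = 0.873), with 1.603 ± 0.348 CPM in replicates 1 and 2 and 1.66 ± 0.184 CPM in replicates 3 and 4. In bulk RNA, fewer cells of a type and less RNA per cell cannot be told apart.

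**Figure D3:**
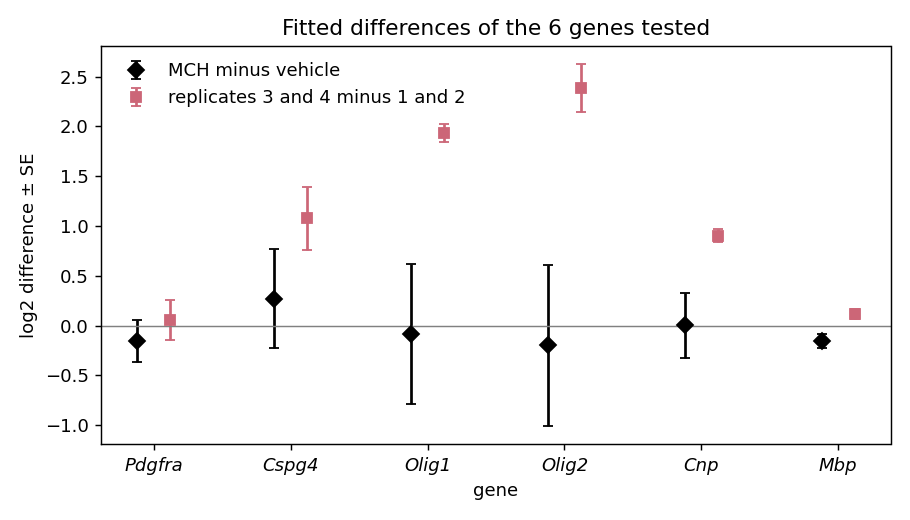
Fitted log2 differences with their SE (vertical axis) of the 6 genes tested (horizontal axis). Black diamonds, MCH minus vehicle, lie between −0.20 and 0.27; red squares, replicates 3 and 4 minus 1 and 2, reach 2.38 for *Olig2* and 1.93 for *Olig1* but 0.05 for *Pdgfra* and 0.12 for *Mbp*.

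Sequence upstream of a gene start was at hand for 4 of the 7 genes (RefSeq windows, GRCm38.p6), of which *Olig2*, *Cspg4* and *Cnp* differed between the sides and *Pdgfra* did not. They are shown to set the genes that moved together beside the one that did not. Each ends before the first start that RefSeq or GENCODE annotates, all are on the plus strand, and capitals mark an E-box (CANNTG, the kind of site that Olig factors bind, the same on both strands) or a site of the SOX type (ACAANG, or CNTTGT on the other strand). The windows are chr16:91225300-91225456, chr9:56864854-56865032, chr11:100574689-100574903 and chr5:75152001-75152250.
Olig2: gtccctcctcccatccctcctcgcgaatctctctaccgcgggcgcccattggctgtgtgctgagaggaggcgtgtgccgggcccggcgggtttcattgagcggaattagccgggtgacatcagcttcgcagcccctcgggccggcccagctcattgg
Cspg4: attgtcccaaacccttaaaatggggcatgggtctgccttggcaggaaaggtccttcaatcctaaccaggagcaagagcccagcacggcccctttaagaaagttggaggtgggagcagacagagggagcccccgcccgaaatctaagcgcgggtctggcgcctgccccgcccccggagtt
Cnp: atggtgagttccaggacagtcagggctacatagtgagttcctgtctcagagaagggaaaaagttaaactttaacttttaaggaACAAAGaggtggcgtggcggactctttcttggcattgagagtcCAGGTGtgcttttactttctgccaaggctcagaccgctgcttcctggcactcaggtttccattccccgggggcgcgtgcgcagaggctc
Pdgfra: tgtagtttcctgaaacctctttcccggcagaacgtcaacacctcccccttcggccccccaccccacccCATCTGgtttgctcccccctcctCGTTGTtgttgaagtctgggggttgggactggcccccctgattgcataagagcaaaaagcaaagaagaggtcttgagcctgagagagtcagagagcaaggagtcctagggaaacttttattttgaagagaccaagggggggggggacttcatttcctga
The windows of *Cnp* and *Pdgfra* each hold 1 E-box and 1 SOX-type match, which do not overlap, and those of *Olig2* and *Cspg4* hold neither. Among 32851 RefSeq windows of the same length, 50.8% hold an E-box at the 157 bases of *Olig2*, 55.3% at the 179 of *Cspg4*, 61.4% at the 215 of *Cnp* and 66.2% at the 250 of *Pdgfra*. The shares for the SOX-type site are 25.1%, 28.1%, 32.8% and 36.3%. A match is a description of letters in these windows and not a site, and no match says only that these letters are not in the window.

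The balance of precursor to myelin genes was followed as the log2 ratio of the summed TPM of *Pdgfra*, *Cspg4*, *Olig1* and *Olig2* to that of *Mbp* and *Cnp*. In vehicle replicates 1 to 4 it was −0.48, −0.10, 1.499 and 1.21, and in MCH replicates −0.10, −0.02, 1.53 and 1.15. All wells of replicates 3 and 4 lay above all wells of replicates 1 and 2, with medians of 1.35 and −0.10, whereas the medians of the treatments were 0.56 and 0.57. *Olig1* supplied 94.8 to 96.9% of the precursor sum in each well, so the ratio is in effect *Olig1* over *Mbp* and *Cnp*. The *Mbp* level is almost wholly that of golli transcripts, so the myelin sum is not a level of myelin transcripts alone. Without the upstream transcripts of *Mbp*, the ratio was 0.53 to 1.27 in replicates 1 and 2 and 2.05 to 2.35 in replicates 3 and 4. The summed precursor level was 21.6 to 24.2 TPM in replicates 1 and 2 and 74.0 to 94.4 TPM in replicates 3 and 4. The myelin sum went from 21.8 to 31.8 TPM to 32.7 to 34.9 TPM. With the 16 other precursor genes over the 20 other myelin genes in place of the members, the ratio was 1.38 to 1.78 in replicates 1 and 2 and 1.72 to 2.07 in replicates 3 and 4, and the sides overlapped.

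**Figure D4:**
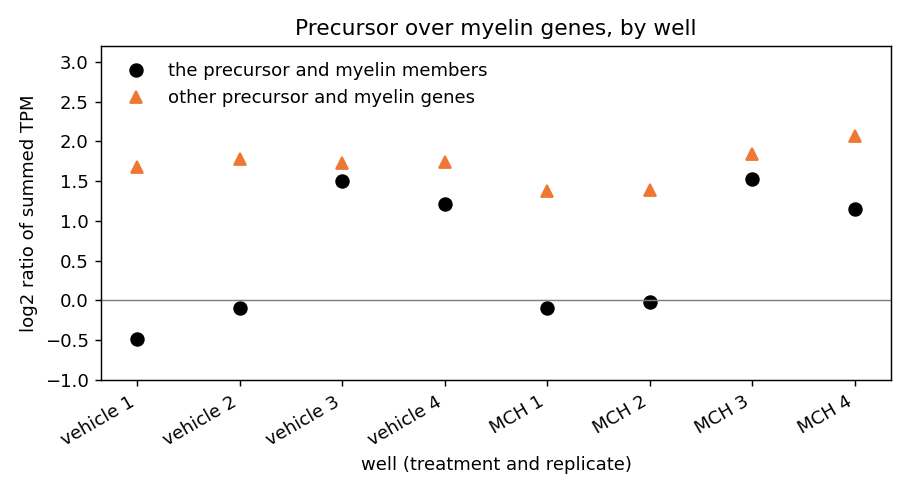
Log2 ratio of summed precursor to summed myelin TPM (vertical axis) in each well (horizontal axis). The *Mbp* part of the members' myelin sum is almost wholly golli transcripts. Black circles, the 4 precursor and 2 myelin members, split by replicate number with medians of −0.10 and 1.35; orange triangles, the other genes of both kinds, stay between 1.38 and 2.07.

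Other genes of the lineage divided by side only in part, with no gene called for MCH in any of these lists. Among the 14962 genes tested, 18.6% were called higher in replicates 3 and 4 and 2406 genes were called lower. Of 13 precursor genes tested, 8 were higher in replicates 3 and 4 and 1 was lower, with a median log2 difference of 0.80, beside −0.005 over all genes tested. The proteoglycan genes *Bcan* and *Cspg5* rose by 1.72 and 0.61, the transcription factor gene *Sox6* by 0.94, *Rlbp1*, which encodes a retinaldehyde-binding protein, by 1.99 and the receptor phosphatase gene *Ptprz1* by 1.28. *Tnr*, a matrix glycoprotein of the lineage and of neurons, fell by 0.16. *Bcan* and *Ptprz1* are also known from astrocytes. Of 5 genes of committed precursors tested, *Tcf7l2* (1.74), *Itpr2* (1.36) and *Sirt2* (0.10) rose and *Plekha1* fell by 0.21. The median of these 5 was 0.10. Of 11 other myelin genes tested, 5 were higher and 0 lower, with a median of 0.18, and the rest were not called. Among them were *Sept4* (0.76), *Apod*, which encodes apolipoprotein D (1.32), *Gal3st1*, which makes sulfatide (1.496), and *Trf*, which encodes transferrin (0.64).

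The ligands and receptors that act on precursors were likewise described. *Pdgfa*, the ligand of the Pdgfra receptor, was even between the sides, at 44.3 ± 1.64 and 45.8 ± 1.76 CPM (log2 difference 0.05, adjusted *P* = 0.402), and so was *Pdgfb* (−0.07, adjusted *P* = 0.14). *Pdgfc* rose by 0.56, *Pdgfd* by 1.11 and the receptor gene *Pdgfrb*, known from pericytes, by 1.22. Over all genes tested, 18.6% were called higher. Of 18 other signals and receptors tested, 11 were higher in replicates 3 and 4 and 2 lower, with a median of 0.51. Among the higher ones, the lowest *P* values were those of the fibroblast growth factor receptor genes *Fgfr3* (1.92) and *Fgfr2* (0.67), *Notch1* (1.58), *Fgf2* (0.93) and the bone morphogenetic protein receptor gene *Bmpr1b* (1.24). *Igf1*, which encodes insulin-like growth factor 1, fell by 0.48 and *Lingo1*, a neuronal inhibitor of myelination, by 0.19.

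Markers of other cells moved with the members. All 11 astrocyte markers tested were higher in replicates 3 and 4, with a median log2 difference of 1.92. Over all genes tested, 18.6% were called higher, which is the share to set beside each count of higher genes here. *Gfap*, the astrocyte filament protein, rose by 2.16, the water channel gene *Aqp4* by 2.63 and the glutamate transporter gene *Slc1a3* by 1.86. Summed over 12 astrocyte markers, the level was 410 to 460 TPM in replicates 1 and 2 and 1196 to 1410 TPM in replicates 3 and 4. Of 10 progenitor markers, 6 were higher and 1 lower, with *Fabp7* at 1.83 and *Nes* at 1.36, and the summed level went from 220 to 264 TPM to 602 to 657 TPM. Of 12 proliferation genes, 11 were higher, among them *Top2a* (2.02) and *Cdk1* (2.16), and the summed level went from 112 to 130 TPM to 152 to 184 TPM. All 7 fibroblast markers tested other than *Pdgfra* were higher (0.99 to 1.81), and all 3 pericyte markers tested other than *Cspg4* (1.14 to 1.22). Of these lists, the pericyte genes *Kcnj8* and *Higd1b* and the microglia gene *Tmem119* lay at or under the floor in all wells. Neuron markers were lower by less, 7 of 10 called, with a median of −0.09, where 2406 of 14962 genes were called lower. The part of these cells in the differences of *Olig1*, *Olig2*, *Cnp* and *Cspg4* was not tested. For the treatments, the summed astrocyte level was 410 to 1283 TPM with vehicle and 417 to 1410 TPM with MCH, and no marker was called.

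**Figure D5:**
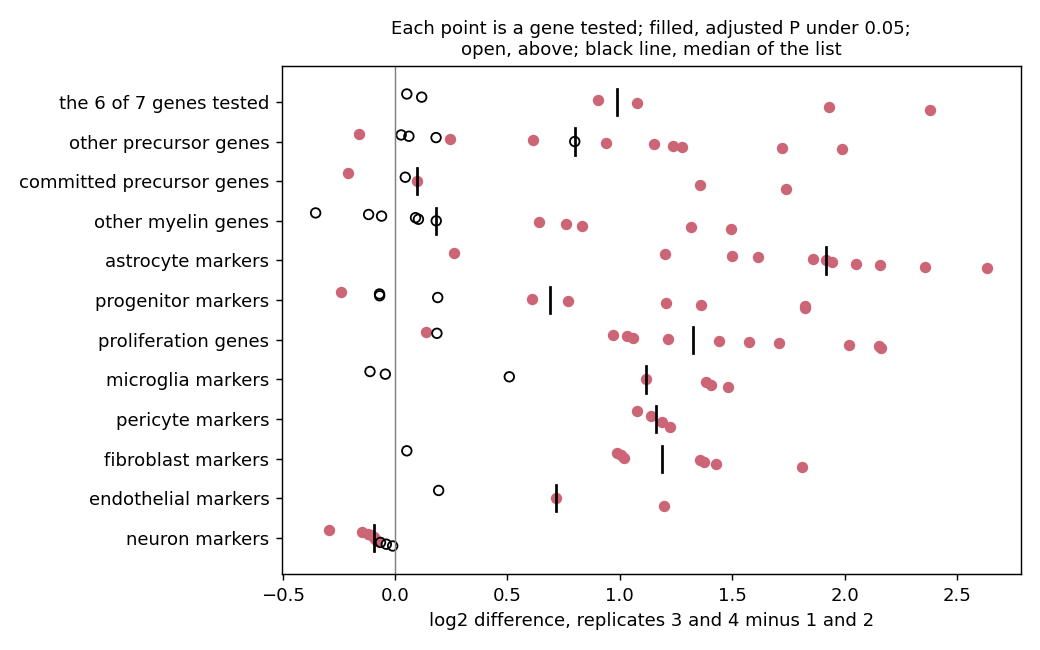
Log2 difference of replicates 3 and 4 minus 1 and 2 (horizontal axis) for each gene tested in 12 lists (rows), filled where the adjusted *P* value is under 0.05, with the median of each list as a black line. Astrocyte markers (median 1.92) and proliferation genes lie far to the right, 4 of the 6 members lie with them, and neuron markers lie just left of 0 (median −0.09).

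The genes with the most similar profiles were found as the smallest root-mean-square difference of centred log2 CPM over the 8 wells, among 13394 other genes with a mean of at least 1 CPM. For *Olig1* they were *Zfp36l1* (0.0431), *Slc9a3r1* (0.0846) and *Grm3* (0.115), where *Olig1* itself spanned 2.14 on that scale. *Olig2* was matched less closely, by *Cdc42ep1* (0.233), *Tril* (0.235) and *P2rx7* (0.238), and *Cspg4* by *Eci1* (0.278), *Rassf4* (0.292) and *Tent5c* (0.298). The profile of *Cnp* was nearest to *Sfxn5* (0.0571), *Ezr* (0.0616) and *Tsc22d4* (0.0642). That of *Mbp*, which spanned 0.39 in all, was nearest to *Glra2* (0.0356), *Fam84a* (0.0433) and *Vip* (0.0462). That of *Pdgfra* was nearest to *1300002E11Rik* (0.0805), *Mvp* (0.0969) and *Gm21989* (0.105). These are descriptions over 8 wells that share their cultures, and the profiles of genes with few counts carry much counting error.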

How the data were processed

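Poly-A RNA-seq of 8 wells was analysed, 4 per treatment by the sample labels. The authors quantified reads with nf-core/rnaseq and salmon on GRCm38. The deposited gene table holds estimated counts, not scaled, of which 9.13% are not whole, and the deposited transcript tables hold estimated counts and TPM, scaled by the authors' salmon run for length and depth. Identifiers were matched to GENCODE vM21, with a name for 98.8% of genes and 98.7% of transcripts. Its release may differ from the authors'. Gene TPM is the sum over a gene's transcripts.

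Counts were rounded and fitted in R 4.3.3 with edgeR 4.0.16 (TMM, filterByExpr with a count minimum of 10 and a total minimum of 15, robust quasi-likelihood F test, Benjamini–Hochberg adjustment over 14962 genes, threshold 0.05), without a block. The comparison of replicates 3 and 4 with 1 and 2 had treatment as a covariate. CPM used TMM factors, and log2 CPM for profiles a prior count of 2. Fits were tested on simulated data. Alternatives used DESeq2 1.42.0 and limma 3.58.1. The members and lists were chosen with earlier results of these data known. The text names every member, from each list up to 5 called genes per direction and defining markers at or under the floor of 3 counts, and for each member the 3 nearest profiles. A called gene of the myelin list is not reported here by name. *Myrf*, *Mobp*, *Pdgfa*, *Pdgfb* and the named astrocyte, progenitor and proliferation genes were chosen after their values were seen.

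Replicate numbers are shared by the treatments. On deviations from treatment means, the 4 same-number pairs correlated at 0.445 to 0.545 and same-side pairs of other numbers at 0.475 to 0.521. Pairs across sides correlated at −0.548 to −0.438. The ranges of same-number pairs and of same-side pairs of other numbers overlapped, so these values show no pairing by number beyond the side. No source says what a number marks.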

Additional observations from a re-analysis of the deposited data

Results flagged for a closer look

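*Pdgfra* in vehicle replicate 4 stood apart from its group, at 1.45 CPM beside 1.80 to 1.82 CPM in the other vehicle-treated wells. *Gpr17* in vehicle replicate 3 was set apart by 1 read, at 0.0353 CPM where the other vehicle-treated wells had 0. These are 2 of 16 groups of 4 wells examined for a well far from the others, and chance alone marks about 1 in 20 such groups.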

How the results depend on the processing

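None of the members was called for MCH in any fit tried, so the replicate block changed no call of a member, although the number of genes called moved from 35 to 154 with DESeq2, 668 with a batch block, 596 with the replicate block, 7 with a length offset, 579 within replicates 1 and 2 and 117 within replicates 3 and 4, and lay between 4 and 29 when each well was left out in turn. The log2 fold change of *Mbp* was −0.16 with the replicate block (adjusted *P* = 0.0814) and −0.16 with the batch block (adjusted *P* = 0.0936). Small differences changed sign. *Pdgfra* became 0.0355 with the length offset and 0.0566 within replicates 3 and 4, and *Olig2* 0.0211 and *Cspg4* −0.17 within replicates 1 and 2. *Cnp* became −0.23 with the length offset, −0.0145 with limma voom, −0.0465 within replicates 1 and 2, and −0.00304 and −0.00102 with the batch and the replicate block. With each well left out, *Cspg4* ranged from −0.33 to 0.55 and *Olig1* from −0.52 to 0.29. *Olig2* ranged from −0.87 to 0.42 and *Cnp* from −0.16 to 0.20. A missing well leaves the sides unequal in its treatment, and the part of this in these ranges was not tested.

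Between the sides, *Olig1*, *Olig2* and *Cnp* kept their direction and their call in all alternatives run, with log2 differences of 1.84 to 1.99, 2.20 to 2.55 and 0.87 to 0.93 when each well was left out. The genes called were 3116 with the length offset and 3276 within vehicle, beside 5194. *Cspg4* lost its call with the length offset (1.07, adjusted *P* = 0.0785) and within vehicle (0.73), and ranged from 0.69 to 1.27 with each well left out. *Mbp* gained one within MCH (0.19) and ranged from 0.0742 to 0.15. *Pdgfra* became −0.0296 with the length offset and −0.16 within vehicle, and ranged from −0.10 to 0.14. The cause of these shifts was not tested. The mean log2 ratio of precursor to myelin genes differed by 1.52 between the sides. It was 0.92 as a mean of log2 values, 1.16 without the upstream transcripts of *Mbp*, 0.28 for the other genes of both kinds and 1.07 without *Olig1*, and 1.42 to 1.59 with each well left out. Between the treatments it ranged from −0.23 to 0.43 with each well left out. The values without *Olig1*, those without short transcripts and those within the sides were added after seeing the data. Depth limits *Gpr17*, *Olig2*, *Cspg4* and *Pdgfra*, which had 0 to 106 counts per well.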

Other observations

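Microglia and endothelial genes, which mark cells that the oligodendrocyte lists do not cover, were scarce in all wells. Of 7 microglia markers tested, 4 were higher in replicates 3 and 4, where 18.6% of all genes tested were called higher. The 4 were *Cx3cr1* (log2 difference 1.48), *C1qa* (1.38), *C1qb* (1.40) and *Trem2* (1.12). Summed over 10 microglia markers, the level was 27.5 to 31.9 TPM in replicates 1 and 2 and 35.7 to 45.5 TPM in replicates 3 and 4. Of 3 endothelial markers tested, *Pecam1* (1.195) and *Kdr* (0.72) were higher, and the summed level was at most 2.55 TPM. None was called for MCH.

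Some genes of the precursor list were high in these wells and even between the sides. *Lhfpl3* had 729 to 907 counts per well with a log2 difference of 0.06 (adjusted *P* = 0.418), and *Pcdh15* had 142 to 237 counts with 0.03 (adjusted *P* = 0.89), where *Sox10* had 0. These genes were chosen after their values were seen.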
